A study of Mus musculus with 12 samples.

Results

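In the mouse liver transcriptome, the rows of a read count table that stand for unannotated loci were examined here. These are regions where reads were counted but to which the table gives no gene ID. The loci were chosen by their total count, at least 120 over all 12 libraries, and 479 of 1458 unannotated loci passed, in a table of 42554 rows. Each such row carries only a serial number, which is used here as its name (locus-1382). For the loci, neither coordinates nor strand, exon structure or sequence were used here, so whether a locus lies inside, beside or opposite a known gene was not analysed here.

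The study compared livers of wild-type mice (WT) and NLRP6 knockout mice (KO), each on a normal diet (ND) or a high-fat diet (HFD), which makes 4 groups of 3 libraries. The mice ate ND until 8 weeks of age and then received HFD for 12 weeks or stayed on ND. NLRP6 is a cytosolic sensor protein of the NOD-like receptor family, and the submitters' design text ties the comparison to lipid droplets in hepatocytes. The knockout was checked in hepatocytes by the submitters, and the labels name no Cre driver, sex or breeding scheme. Nothing in the labels ties a library to a separate animal, so the p-values rest on differences among libraries that may be partly technical.

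Liver RNA holds, besides the messenger RNAs of known genes, long noncoding RNAs, read-through past the ends of genes, antisense transcripts and copies of transposable elements. Transcript assembly collects such regions as loci when reads pile up outside the annotation. The liver switches many of its metabolic genes when an animal moves from a low-fat to a high-fat diet.

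The libraries held 13339879 to 15933886 counts. A single annotated row, MGP_C57BL6NJ_G0033694, had 2019 to 2981 counts in the WT libraries and 0 in all 6 KO libraries, so the genotype labels separate the libraries. No row could be matched to a gene symbol, so Nlrp6 itself and marker genes of liver cell types were not analysed here. In whole liver, fewer cells of a type and less RNA per cell cannot be told apart.

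The 479 loci spanned a wide range of abundance. Their totals ran from 120 to 2448310 counts with a median of 572. Of them, 308 had fewer than 1000 counts, 143 had 1000 or more but fewer than 10000, and 28 had at least 10000. As CPM (counts scaled to a common library size, here with TMM factors, the trimmed mean of M-values), the median locus had a mean level of 3.45 over the libraries, against 15 for the tested annotated genes. A level of at least 10 CPM was reached by 126 loci, of at least 100 CPM by 16 and of at least 1000 CPM by 5. Most loci were detected throughout: 467 had a count in every library, and the other 12 were at 0 in at most 3 libraries.

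The total count chose the loci, so these levels describe the choice. Just inside the limit stood locus-456, locus-644 and locus-828 with 120, 121 and 122 counts, and just outside it stood locus-1327, locus-1372 and locus-68 with 119, 119 and 118. Of the unannotated loci left out, 317 had no count and 662 had 1 to 119. The 479 loci held 99.6% of all counts on unannotated loci. All 479 passed the filter on low counts and were tested among 13843 rows.

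The reads were concentrated in a few loci. Locus-1382 alone took 51.2% of the counts on the 479 loci, the top 5 took 76.0% and the top 50 took 91.7%. By total count locus-1382 ranked 3 among all rows of the table, annotated genes included, and its rank within single libraries lay between 3 and 8. Locus-1271 ranked 39, locus-1268 ranked 62, locus-61 ranked 71 and locus-1266 ranked 94. These ranks compare counts, not counts per length, since the lengths of the loci were not used here.

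The loci together took a larger share of the library on HFD. In WT livers on ND they held 2.08, 2.28 and 2.25% of the counts, and in KO livers on ND 2.16, 2.15 and 2.08%. On HFD the share was 3.74, 2.74 and 3.28% in WT and 4.43, 2.96 and 3.45% in KO. Every HFD library lay above every ND library of both genotypes. The mean rose from 2.20 ± 0.109% to 3.25 ± 0.503% in WT (SD, n = 3), a ratio of 1.48, and from 2.13 ± 0.0474% to 3.61 ± 0.749% in KO, a ratio of 1.70. KO and WT libraries overlapped on both diets.

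A few loci carried that difference. Locus-1382 held 1.01 ± 0.0615% of the counts in WT on ND and 1.92 ± 0.347% on HFD, and 0.927 ± 0.0397% and 1.90 ± 0.782% in KO. The remaining 478 loci held 1.06, 1.22 and 1.3% in WT on ND, 1.19, 1.24 and 1.18% in KO on ND, 1.55, 1.21 and 1.24% in WT on HFD, and 1.65, 1.66 and 1.83% in KO on HFD. The KO HFD libraries thus stood above all others in this remainder, by 0.382 percentage points over WT HFD. Without locus-1266 as well, the KO HFD values became 1.64, 1.15 and 1.13% and overlapped those of WT HFD. Without the 5 most abundant loci the group means lay between 0.641 and 0.683%, and HFD differed from ND by 0.0422 percentage points in WT and -0.0186 in KO.

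**Figure D1:**
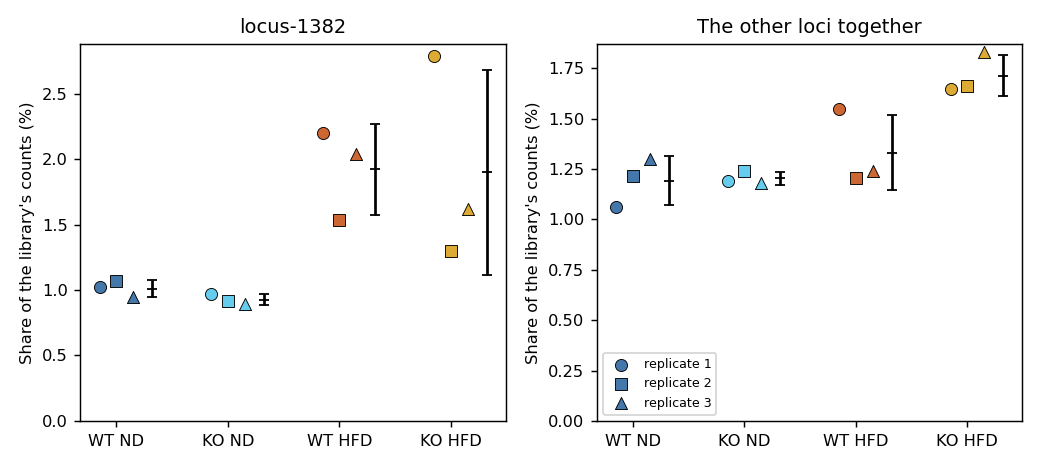
Share of each library's counts, in percent, taken by locus-1382 (left) and by the other 478 loci together (right). Points are libraries and bars the mean ± SD of 3; on the left the HFD libraries lie above all ND libraries, whose highest is 1.07%, and on the right only the KO HFD libraries lie above all others.

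Locus-1382 was higher on HFD in both genotypes. Its counts were 154255, 152666 and 133143 in WT on ND and 302704, 223321 and 279564 in WT on HFD. In KO they were 154820, 130359 and 133532 on ND and 371443, 174636 and 237867 on HFD. The diets did not overlap in either genotype, and KO HFD replicate 1 was the highest library of all. The mean level in WT was 9236 ± 447 CPM on ND and 21492 ± 3970 on HFD, and in KO 8577 ± 472 and 20519 ± 9572 (SD, n = 3). The diet difference was 1.22 on the log2 scale in WT (standard error 0.26, adjusted p = 0.00263, edgeR) and 1.26 in KO (standard error 0.26, adjusted p = 0.0018). Genotype made a difference of -0.11 on ND (adjusted p = 0.863) and -0.07 on HFD (adjusted p = 0.952), both within the spread of the libraries. The diet response differed between genotypes by 0.04 with a standard error of 0.37 (adjusted p = 0.973).

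The rows that followed locus-1382 most closely over the 12 libraries were annotated ones. By Pearson's r of log2 CPM, MGP_C57BL6NJ_G0010969 came first (r = 0.990, 100 to 450 counts), then MGP_C57BL6NJ_G0022476 (r = 0.987) and MGP_C57BL6NJ_G0032567 (r = 0.986). These values describe 12 libraries that fall into groups by diet, and 999 rows, 47 of the 479 loci among them, reached an r of at least 0.9.

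Locus-1271, the next most abundant, was also higher on HFD. It had 12348, 19748 and 23426 counts in WT on ND, 85007, 51319 and 51515 in WT on HFD, 8849, 19640 and 9603 in KO ND, and 97679, 24214 and 48252 in KO HFD. No HFD library overlapped an ND library, although KO HFD replicate 2 came close. The difference was 2.10 in WT (standard error 0.56, adjusted p = 0.013) and 2.5 in KO (standard error 0.57, adjusted p = 0.00504). The WT call was lost without WT ND replicate 1 (adjusted p = 0.0505).

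Locus-1268 was the steadiest of the 5, with 20612 to 27172 counts in all libraries. Its mean level in WT was 1447 ± 202 CPM on ND and 1959 ± 43.7 on HFD, and in KO 1352 ± 91.1 and 1744 ± 263. The diet difference of 0.44 in WT passed the test (standard error 0.15, adjusted p = 0.0306), but 6 of 12 alternative settings lost it, with an adjusted p of up to 0.357. In KO it was 0.37 (adjusted p = 0.0579).

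Locus-61 went the other way. Its counts were 22120, 34142 and 28501 in WT ND and 2633, 3001 and 2567 in WT HFD, a level 8.19-fold lower on HFD (log2 difference -3.03, standard error 0.74, adjusted p = 0.00963). In KO the counts were 48935, 36402 and 44775 on ND and 2259, 22875 and 3351 on HFD. KO HFD replicate 2 lay below every KO ND library but within the range of WT ND, while the other KO HFD libraries stood with WT HFD. The KO difference of -1.89 did not pass (standard error 0.71, adjusted p = 0.0542).

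Locus-1266 varied most between libraries of one group. It had 1128, 8372 and 19635 counts in WT ND, against 580, 695 and 685 on HFD. In KO it had 406, 513 and 347 on ND and 629, 68291 and 103208 on HFD. KO HFD replicates 2 and 3 stood far above every other library, whereas KO HFD replicate 1 lay at the level of WT HFD, a 139-fold range within 1 group. The KO diet difference was 7.33 (standard error 1.70, adjusted p = 0.00742) and rests on those 2 libraries. The genotype difference on HFD was 6.34 (adjusted p = 0.204), and that on ND was -4.58 (adjusted p = 0.12). The row most like it over the 12 libraries was MGP_C57BL6NJ_G0019679 (r = 0.992), followed by MGP_C57BL6NJ_G0026023 (r = 0.984), which ran from 38 to 16222 counts. None of the other 478 loci reached an r of 0.9 with it.

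**Figure D2:**
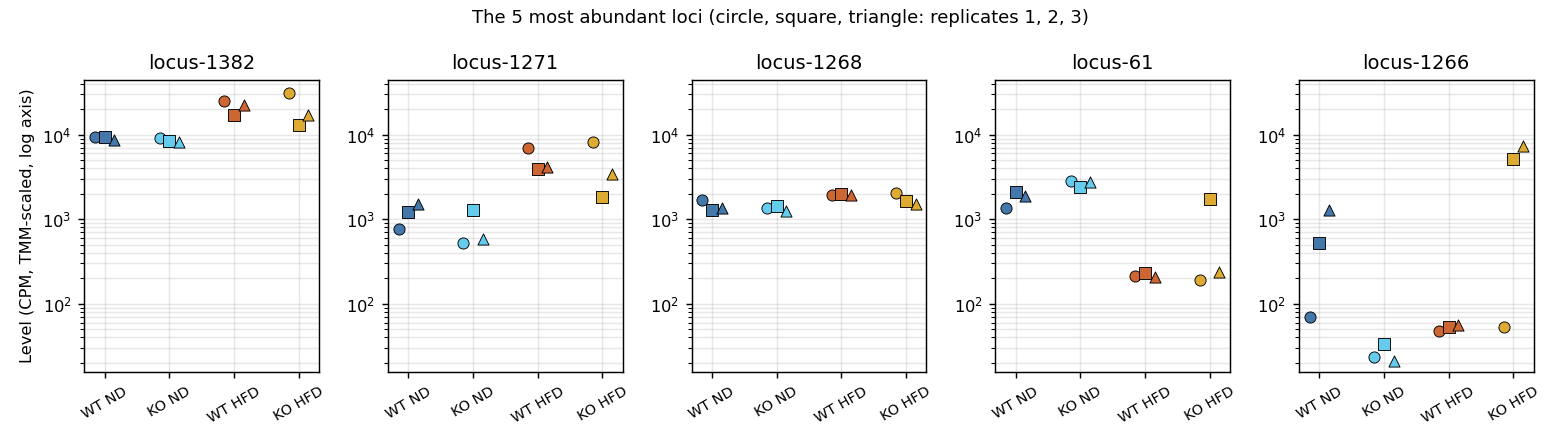
Level of the 5 most abundant loci in each of the 12 libraries, in TMM-scaled CPM on a log axis, by group. Locus-1382 and locus-1271 stand higher in every HFD library than in any ND library of the same genotype, locus-61 stands lower in every HFD library than in any ND library of the same genotype, with KO HFD replicate 2 well above the other HFD libraries, and locus-1266 is high in KO HFD replicates 2 and 3.

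Across all 479 loci, HFD was followed far more often by a higher than by a lower level. In WT, 164 loci were higher (34.2%; 19.5% of all rows tested) and 32 were lower (6.68%; 21.5% of all rows). In KO, 156 were higher (32.6%; 22.6% of all rows) and 37 were lower (7.72%; 22.1% of all rows). A change of at least 2-fold was seen in 129 of those higher and 22 of those lower in WT, and in 110 and 30 in KO. The median log2 difference over all 479 loci was 0.64 in WT and 0.46 in KO, against -0.03 and 0.01 over all rows tested. A positive difference was found in 351 loci in WT and 315 in KO, whatever its p. For this count and for the 2-fold counts, the shares over all rows are not given here. The loci also had larger differences in either direction, with a median absolute log2 difference of 0.82 in WT and 0.76 in KO. Over all rows it was 0.51 and 0.55. Abundance was not matched in this comparison, and the loci were less abundant than annotated genes. The excess was not particular to diet. Between genotypes the median absolute difference was 0.35 for the loci and 0.25 over all rows on ND. On HFD it was 0.35 and 0.20.

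The lean towards higher levels was also seen within ranges of abundance. Among loci with a mean of 1 to 10 CPM, 104 of 298 were higher and 13 lower in WT, whereas 536 of 4238 annotated genes in that range were higher and 1017 lower. In KO the same loci gave 98 higher and 15 lower, and the annotated genes 699 and 861. Among loci of 10 to 100 CPM, 42 of 110 were higher and 13 lower in WT, against 1417 and 1570 of 6343 annotated genes. In KO, 41 were higher and 18 lower, against 1630 and 1757. At 100 CPM or more annotated genes also leaned higher, 490 against 210 of 1448 in WT and 520 against 260 in KO, beside 8 higher and 2 lower of 16 loci in WT and 9 and 2 in KO. The 73 tested unannotated loci below the total of 120 showed 17 higher and 4 lower in WT, and 17 and 7 in KO. At totals this low, the filter on low counts more easily passes loci that are high in 1 group. Group differences were thus favoured in advance among these 73, and their balance is no separate support.

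The balance of higher and lower calls moved when the libraries were scaled by their totals only. The TMM factors were 1.07 to 1.13 in the ND libraries and 0.888 to 0.988 in the HFD libraries. Scaled by library totals only, the median over all rows shifted to -0.32 in WT and -0.19 in KO, and the median over the 479 loci became 0.35 and 0.26. With this scaling 112 loci were higher (10.8% of all rows) and 52 lower (35.5% of all rows) in WT, and 115 higher (15.5% of all rows) and 56 lower (30.1% of all rows) in KO. The share of calls that were higher thus went from 83.7 to 68.3% in WT and from 80.8 to 67.3% in KO. Under RLE factors (relative log expression), another scaling, that share was 84.3% in WT and 80.9% in KO, close to the TMM values.

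The shift was visible library by library. Measured from the WT ND mean, the median locus stood at 0.62, 0.48 and 0.53 on the log2 scale in the WT HFD libraries and at 0.66, 0.19 and 0.38 in the KO HFD libraries. In the ND libraries it stood between -0.05 and 0.08. The median annotated gene stayed between -0.05 and 0.01 in all 12 libraries. That flatness follows largely from the scaling, since annotated genes made up 13291 of the 13843 rows that set the TMM factors. The WT ND libraries lie near 0 in both sets because they were measured from their own mean. The values thus place the loci relative to annotated genes only. KO HFD replicate 2 showed the smallest shift of the HFD libraries.

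**Figure D3:**
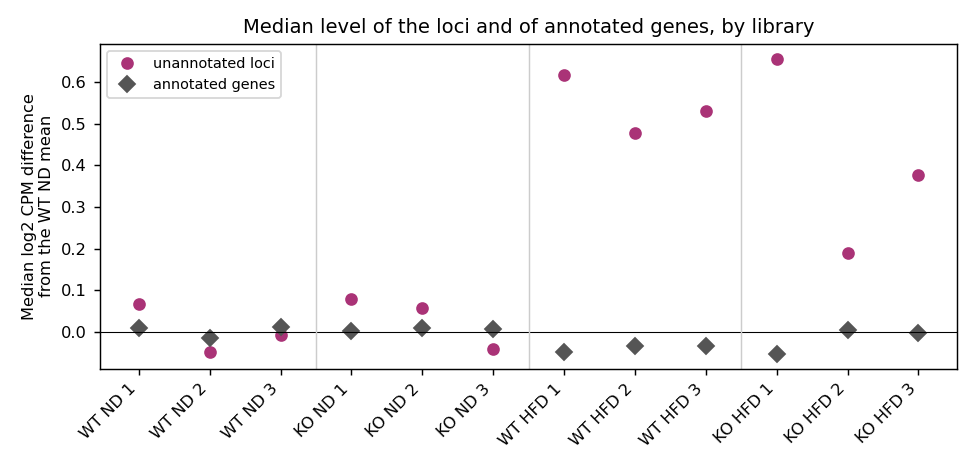
Median over the 479 loci (circles) and over 13291 annotated genes (diamonds) of the log2 CPM difference from the WT ND mean, for each library. All 6 HFD libraries lie at 0.19 or above for the loci, and annotated genes stay within -0.05 to 0.01, largely because of the TMM scaling.

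The KO HFD libraries differed from each other along this response. Over the 196 loci called for diet in WT, each KO library was placed on the line from the mean of WT ND to that of WT HFD. KO HFD replicate 1 lay on the HFD side of the midpoint for 179 loci (91.3%), replicate 3 for 145 (74.0%) and replicate 2 for 90 (45.9%). The KO ND libraries did so for 32, 31 and 29 loci. The matching shares over all rows called for diet in WT are not given here. Whether these positions are particular to the loci or hold for the whole library was not tested. Since the loci were called from the WT libraries, these positions come from libraries whose levels the call did not compare.

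The diet response could be compared between genotypes without shared libraries, although both tests used the same estimate of each row's spread. Of 196 loci called in WT and 193 called in KO, 102 were higher in both and 18 lower in both, which is 61.2% of the WT calls and 62.2% of the KO calls. Over all rows tested these shares were 68.3 and 62.6%. Of the 196 WT calls, 172 (87.8%) had the same sign in KO, against 93.1% over all rows. Locus-1358 was called in opposite directions, 0.85 in WT and -0.43 in KO, as was locus-1027, -0.47 in WT and 0.65 in KO. A further 74 loci were called in WT only, 71 in KO only and 212 in neither. A call in 1 genotype alone does not show a different response, which the interaction tests directly. As a description over 479 loci that share libraries, the log2 differences correlated with r = 0.574 and rho = 0.597.

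**Figure D4:**
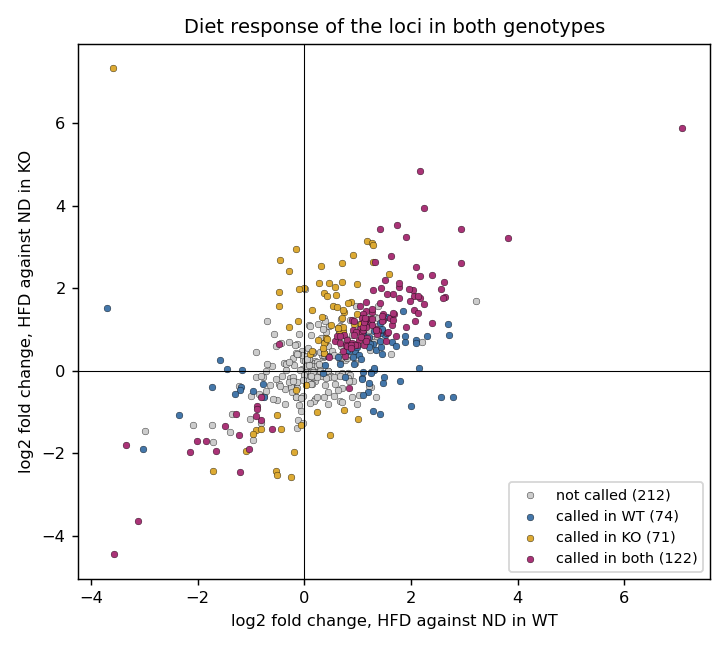
Log2 difference of HFD against ND in WT (x axis) and in KO (y axis) for each of the 479 loci, coloured by edgeR call. Of the 122 loci called in both, 102 lie in the upper right and 18 in the lower left; the point near the top left is locus-1266.

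Among the loci with a mean of at least 1 CPM and no overlap between diets, locus-731 showed the largest called rise in WT. It had 2, 0 and 0 counts in WT ND, 0, 3 and 2 in KO ND, 58, 108 and 93 in WT HFD, and 133, 58 and 60 in KO HFD. It was all but silent on ND and present in every HFD library. Its ratio of summed counts over TMM-scaled library sizes was 164 in WT (95% exact binomial interval 44.9 to 1359, counting error only) and 62.7 in KO (26.5 to 195). The test gave an adjusted p of 3.85e-05 in WT and 3.67e-05 in KO. HFD libraries gave 259 counts in WT and 251 in KO, and ND libraries 2 and 5. The total count and mean level that admitted locus-731 thus rest on the HFD libraries. It was also named for the size of this difference, so the ratios and p-values describe a locus chosen for it.

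Locus-408 followed at a lower level. Its counts were 9, 8 and 5 in WT ND, 41, 65 and 31 in WT HFD, 1, 5 and 2 in KO ND, and 11, 20 and 43 in KO HFD. The difference was 2.95 in WT (standard error 0.52, adjusted p = 0.00075) and 3.42 in KO (adjusted p = 0.00067). Every HFD library lay above every ND library. Most counts of locus-408 likewise came from HFD libraries, and it was named for this difference.

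Locus-1273 showed the largest fall in WT among called loci with a mean of at least 1 CPM. It had 3034, 3725 and 4469 counts in WT ND, against 254, 337 and 285 on HFD, a difference of -3.35 (standard error 0.40, adjusted p = 0.000155). In KO it had 3394, 2564 and 2850 counts on ND and 241, 1086 and 748 on HFD, a difference of -1.79 (adjusted p = 0.0028). All HFD libraries were low, KO HFD replicate 2 the least so, as at locus-61.

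Locus-39 fell from a low level almost to 0. Its counts were 36, 40 and 26 in WT ND, 42, 34 and 38 in KO ND, 0, 9 and 0 in WT HFD, and 1, 6 and 0 in KO HFD. The ratio of ND to HFD was 8.96 in WT (4.54 to 20.2) and 13 in KO (6.13 to 33.2), with adjusted p-values of 0.00956 and 0.00432. Most counts that admitted locus-39 came from ND libraries, and it was named for its fall. In KO, locus-1232 also fell, from 357, 435 and 366 counts on ND to 8, 89 and 63 on HFD (-2.57, standard error 0.69, adjusted p = 0.0124).

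Between genotypes on ND, few loci differed. In KO, 8 loci were higher (1.67%; 1.96% of all rows) and 11 were lower (2.30%; 2.85% of all rows), shares near those of all rows. The median difference over the 479 loci was 0.01. The called differences ran from -2.75 to 1.70 on the log2 scale. None of the 19 was called on HFD, where 12 of them had the same sign.

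Locus-341 had the largest rise among them. It had 120, 179 and 142 counts in WT ND and 608, 427 and 441 in KO ND, with no overlap. The difference was 1.70 (standard error 0.30, adjusted p = 0.0097) and passed under all 12 alternatives. On HFD its counts were 278, 123 and 179 in WT and 251, 156 and 197 in KO, and the groups overlapped.

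A further 3 loci met the naming rule. Locus-1070 had 58, 21 and 44 counts in WT ND and 127, 131 and 85 in KO ND (1.45, adjusted p = 0.0458). Locus-1222 had 213, 511 and 253 in WT ND and 6, 89 and 63 in KO ND (-2.63, adjusted p = 0.0472). Locus-38 had 43, 135 and 49 in WT ND and 17, 8 and 15 in KO ND (-2.53, adjusted p = 0.0205). Leaving out single libraries lost the call of locus-1070 in 5 of 6 cases, with adjusted p up to 0.184. The call of locus-1222 was lost in 8 of 12 alternatives, 5 of them omissions of a library, with adjusted p up to 0.162. That of locus-38 was lost in 4 of 12, all omissions of a library, with adjusted p up to 0.111. The count of 19 fell to 5 without WT ND replicate 2 and to 4 without KO ND replicate 2. The share of all rows called under each omission is not given here, so the loss may not be particular to the loci.

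On HFD, 1 locus was higher in KO (0.0867% of all rows were) and 0 were lower (0.159% of all rows). At an unadjusted p under 0.05 there were 61 loci (12.7%; 11% of all rows), and DESeq2 called 10 (1.85% of all rows). The median difference was -0.13 over the loci and 0.01 over all rows. The called locus was locus-1339, with 143, 124 and 90 counts in WT HFD and 355, 544 and 451 in KO HFD. Its ND counts were 365, 362 and 609 in WT and 469, 570 and 349 in KO.

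Locus-1339 was low only in the WT HFD libraries. Its mean level in WT was 28.3 ± 10 CPM on ND and 9.49 ± 2.21 on HFD, and in KO 28.7 ± 8.08 and 34.4 ± 5.80. The genotype difference on HFD was 1.86 (standard error 0.28, adjusted p = 0.0132), and the diet difference in WT was -1.57 (adjusted p = 0.000802). The genotype call was lost without WT HFD replicate 2 (adjusted p = 0.0529), WT HFD replicate 3 (0.0978), KO HFD replicate 2 (0.0668) or its replicate 3 (0.0706). Without KO HFD replicate 1, 38 loci were called, 12 higher and 26 lower, but the share of all rows called in that setting is not given here.

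The diet response itself differed between genotypes at 8 loci: 4 were higher in KO relative to WT (0.766% of all rows) and 4 were lower (0.441% of all rows). Locus-997 had 674, 673 and 738 counts in WT on ND, 637, 894 and 774 in WT on HFD, 1211, 1567 and 1380 in KO ND, and 507, 281 and 336 in KO HFD. It fell on HFD in KO (-1.55, adjusted p = 0.000206) and was 0.48 in WT (adjusted p = 0.107), a difference in response of -2.03 (standard error 0.32, adjusted p = 0.0141). KO livers had the highest level on ND and the lowest on HFD.

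Locus-631 was likewise highest in KO ND and lowest in KO HFD. It had 196, 140 and 232 counts in WT on ND, 91, 115 and 108 in WT on HFD, 557, 393 and 416 in KO ND, and 72, 54 and 75 in KO HFD. The difference in response was -1.91 (adjusted p = 0.0138). Locus-824, with 37, 80 and 51 counts in WT on ND, 21, 30 and 45 in WT on HFD, 20, 23 and 25 in KO ND, and 40, 85 and 83 in KO HFD, went the opposite way (2.37, standard error 0.52, adjusted p = 0.0419), and 10 of 12 omissions of a library lost that call. The count of 8 ranged from 0, when replicate 3 of either HFD group was left out, to 41 with KO HFD replicate 1 omitted. Shares of all rows for these omissions are not given here.

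Averaged over both diets, 3 loci were higher in KO (0.383% of all rows) and 5 were lower (1.17% of all rows). Locus-367 had 14, 12 and 12 counts in WT on ND, 17, 14 and 12 in WT on HFD, 27, 27 and 27 in KO ND, and 27, 32 and 32 in KO HFD. Its KO and WT libraries did not overlap on either diet (1.04, standard error 0.21, adjusted p = 0.0261), but 10 of 17 alternatives lost the call, 9 of them by leaving out 1 of the 12 libraries (adjusted p up to 0.0851). Locus-332 had 32, 45 and 21 counts in WT on ND, 24, 23 and 30 in WT on HFD, 6, 4 and 8 in KO ND, and 21, 20 and 17 in KO HFD (-1.45, standard error 0.27, adjusted p = 0.0166), a call that 4 omissions of a library lost (adjusted p up to 0.0614). Its genotype difference was -2.45 on ND (adjusted p = 0.00639) and -0.45 on HFD (adjusted p = 0.695, edgeR). The average at locus-332 thus rests mainly on the ND libraries. The count of 8 became 0 with KO HFD replicate 3 omitted and 37 when replicate 1 of that group was omitted instead, again without shares of all rows.

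**Figure D5:**
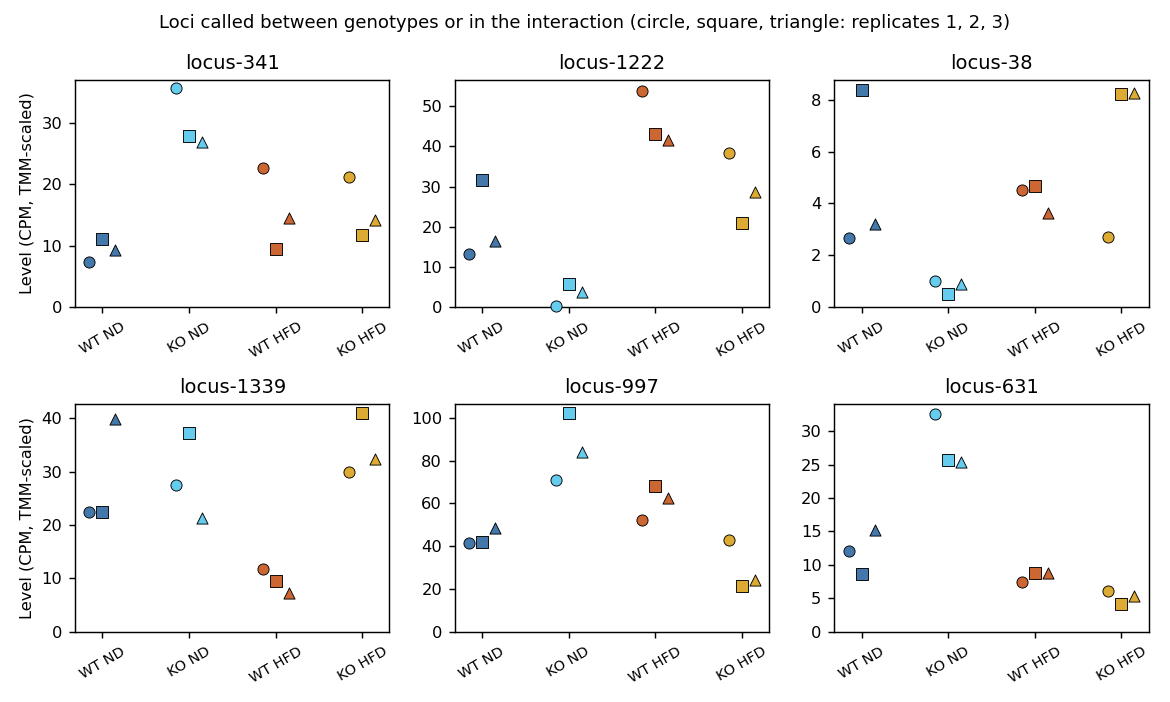
Level in TMM-scaled CPM in each library of 6 loci called between genotypes or in the interaction; symbols mark replicates 1, 2 and 3, and each axis starts at 0. Locus-341 is high in KO ND, locus-1222 and locus-38 are low in KO ND, locus-1339 is low in WT HFD, and locus-997 and locus-631 are high in KO ND and low in KO HFD.

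No locus was present in one genotype or diet and absent in the other, taking presence as at least 5 counts in each library and absence as 0 in each. Below 100 CPM the loci varied more between replicates than annotated genes of like abundance. At 1 to 10 CPM the median coefficient of variation was 28.7% in WT ND, 27.3% in KO ND, 27.8% in WT HFD and 39% in KO HFD for the loci, against 20.2, 18.8, 24.1 and 25.7% for annotated genes. At 10 to 100 CPM it was 17.8, 12.4, 15.7 and 23.2% against 10.9, 9.42, 11.2 and 13.8%. Among the 16 loci of at least 100 CPM it was 13.1, 8.62, 8.95 and 30.1% against 10.7, 7.66, 9.10 and 15.2%, so the loci were no wider than annotated genes in WT HFD. KO HFD was the widest group in all 3 ranges, for the loci and for annotated genes alike.

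Beyond locus-1266, locus-1233 stood out for its spread, an example picked after its values were seen. It had 463, 138 and 47 counts in WT ND, 1550, 114 and 77 in KO ND, 3256, 66 and 1300 in WT HFD, and 1067, 1581 and 1703 in KO HFD. The WT HFD libraries spanned a 52.8-fold range. Ranges over 10-fold within a group were found in 4 (WT ND), 6 (WT HFD), 7 (KO ND) and 8 (KO HFD) of 424 loci with a mean of at least 1 CPM. Several of these ranges start near the floor, where a few reads make the ratio. An example is locus-1177 in WT ND, from 0.062 to 1.60 CPM. The share of annotated genes with such ranges is not given here, so they do not set the loci apart.

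Loci with adjacent serial numbers had a median likeness close to that of distant ones. The median r of log2 CPM was 0.172 over 163 adjacent pairs, 0.162 over 655 pairs 2 to 5 numbers apart and 0.151 over 106695 pairs more than 50 apart. An r of at least 0.7 was reached by 16% of adjacent pairs, 10.2% of pairs 2 to 5 apart and 10.7% of the distant pairs. These pairs share their 12 libraries, and whether the serial number follows genome position was not analysed here.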

How the data were processed

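Per the labels' protocols, RNA was isolated from liver with TRIzol; the library kit, NEBNext Ultra RNA, does not mark strand, so reads of a locus and of an overlapping gene cannot be told apart. The authors deposited raw read counts per row for 12 libraries. Per the submitters' processing notes, HISAT2 2.0.5, featureCounts 1.5.0-p3 and mm39 were used; for the assembly of the unannotated loci, the tool is not given in the sources used. Annotated IDs are of C57BL/6NJ, so the build is uncertain.

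Rows were kept by filterByExpr, scaled by TMM and tested with edgeR 4.0.16 (robust quasi-likelihood, R 4.3.3) in 1 model of 4 group means over 12 libraries, in 6 comparisons. P-values were adjusted by Benjamini-Hochberg over 13843 rows, with calls at 0.05. The standard error is the log2 difference over the root of F. Log CPM used a prior count of 2. Alternatives were DESeq2 1.42.0, RLE factors, no filter, a replicate block, only the libraries compared and each library left out. Scaling by library totals only was an alternative chosen after seeing the data. The script was tested on simulated data.

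Named loci were the 5 most abundant and, per comparison, those with the largest called differences at 1 CPM or more: up to 2 in each direction without overlap between groups, and for the interaction and average 1 in each direction, whether or not groups overlapped; any other locus named was picked with its values in view. The members and lists were chosen with earlier results of these data known, so summed shares are given with no p-value, although a permutation test had been planned. Replicate numbers were not used to pair the libraries in the main model, since the labels state no pairing. Same-number correlations were -0.0170 to 0.246, and 5 of 18 exceeded 0.1. Of 36 combinations of library and group, 20 correlated best with their own number. Whether same-numbered libraries shared handling was not tested.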

Additional observations from a re-analysis of the deposited data

Results flagged for a closer look

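At 8 loci the response to HFD differed between KO and WT by the test of the difference itself (edgeR interaction, KO response minus WT response, log2). The difference was -2.03 at locus-997, -1.91 at locus-631, -1.78 at locus-70 and -1.27 at locus-1358. It was 1.12 at locus-1027, 1.84 at locus-1339, 2.22 at locus-1123 and 2.37 at locus-824. Of these, 5 were also called between genotypes on ND: locus-997, locus-631, locus-70, locus-1027 and locus-1123. The interaction contains that ND difference from the same libraries, so the overlap is partly built in. Its share over all rows is not given here. At locus-1123 the counts were 40, 41 and 41 in WT ND, 37, 50 and 34 in WT HFD, 14, 9 and 6 in KO ND, and 41, 47 and 48 in KO HFD, so the KO ND libraries stood apart below all others. Groups of 3 libraries are too small for a check of single outlying values.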

How the results depend on the processing

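The diet calls of locus-1382 held under all 12 alternatives in both genotypes (adjusted p up to 0.0137 in WT and 0.0142 in KO). Over all named loci, 377 recomputed values kept direction and side of the threshold, 54 lost the call, 13 gained one and 8 changed sign, none of the last called; the cause was not tested. Leaving out 1 library gave 142 to 177 loci called for diet in WT, 138 to 198 in KO, 4 to 18 for genotype on ND, 0 to 38 on HFD, 0 to 41 for the interaction and, averaged over diets, 0 to 37. DESeq2 called 48 loci on ND, 10 on HFD, 26 for the interaction and, averaged over diets, 28. The replicate block gave 212 and 211 diet calls, 30 on ND, 3 on HFD, 8 for the interaction and, averaged over diets, 15; 20 of 36 combinations of library and group correlated best with their own number, a hint from the data and not the design. The 6 ND libraries alone gave 30, and no filter gave 3 on HFD. Apart from DESeq2 on HFD, shares of all rows called are not given here for these settings. These counts therefore do not set the loci apart from other rows. The diet difference in the summed share was 0.139 percentage points in WT, 0.510 in KO and 0.325 over both without locus-1382, and 1.62 in WT and 1.76 over both with TMM-scaled library sizes. Leaving out 1 library, it ranged from 0.806 to 1.31 in WT, 1.07 to 1.81 in KO and 1.06 to 1.43 over both. The genotype difference ranged from -0.136 to -0.0333 on ND, -0.0503 to 0.685 on HFD and -0.0621 to 0.306 over both. Sign changes occurred only as a library was left out, in uncalled genotype differences: on HFD locus-1382 ranged from -0.51 to 0.18, locus-1271 from -0.92 to 0.23 and locus-61 from -0.014 to 2.17, and on ND locus-1268 ranged from -0.18 to 0.017. For locus-1382 the sign changed without WT HFD replicate 1 (0.05) and without KO HFD replicate 2 (0.18) or 3 (0.05); for locus-1271 the same omissions gave 0.15, 0.23 and 0.0045. Depth limits the loci of a few counts, such as locus-731 and locus-39, whose intervals cover counting error only.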
